A study of Mus musculus with 12 samples.

Results

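The genes described here make, break down and read out the cyclic nucleotides cAMP and cGMP. They were chosen by symbol, as every gene on the array named Adcy or Pde with a family number, plus the catalytic and regulatory subunits of protein kinase A (PKA), and 40 of the 27381 genes in the table met that rule. The 40 comprised 10 adenylyl cyclases, 24 phosphodiesterases, 2 PKA catalytic subunits and 4 PKA regulatory subunits. No guanylyl cyclase carries such a symbol, so the enzymes that make cGMP entered only as a pathway list. All 40 symbols are current in RefSeq.

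Adenylyl cyclases make cAMP from ATP, mostly under the control of G protein-coupled receptors, and phosphodiesterases hydrolyse cAMP, cGMP or both. In the absence of cAMP the PKA regulatory subunits hold the catalytic subunits inactive, and cAMP binding releases them to phosphorylate channels, receptors and transcription factors such as CREB. In forebrain neurons this pathway is known for its part in synaptic plasticity and memory, and several of its enzymes are drug targets.

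The study trained head-fixed, water-restricted mice (strain C57B16/J, as the labels spell it) to respond to a visual cue for water ("trained"), while mice of the control groups were handled in the same way but received water at random intervals. All mice had undergone surgery for head fixation at 8 to 12 weeks of age, followed by 7 d of recovery. Training then took a mean of 27 d (error 2.6 d), so the mice were older than at surgery when tissue was taken. Pooled RNA of the anterior cingulate cortex (ACC) or the hippocampus (HC) was measured on Affymetrix Mouse Gene 2.0 ST arrays, whose probes lie along the exons of a gene. There were 4 groups of 3 pools, control and trained for ACC and control and trained for HC. Pools 1 and 2 of every group belonged to batch 1 and pool 3 to batch 2. The labels give 5 mice for an ACC pool and 7 for an HC pool and list 34 mice in all (16 male and 18 female). The paper gives a larger total, so the number of mice behind these arrays is not settled. An RNA pool averages its mice, and in bulk tissue fewer cells of a type and less RNA per cell cannot be told apart.

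Values are log2 expression values after Robust Multiarray Average. They ran from 0.457 to 13.3, array medians lay between 3.34 and 3.42, and the correlation across genes between 2 arrays of a group was r = 0.994 to 0.995. For the background, receptor genes of the nose (odorant and vomeronasal, 1365 genes) gave a median of 1.42 and 2.76 as the 95th percentile. The means of 6 of the 40 genes fell under that percentile: Adcy10, which encodes the bicarbonate-sensitive soluble cyclase, and the photoreceptor phosphodiesterase genes Pde6a, Pde6b, Pde6c, Pde6g and Pde6h. The tissue labels were checked against marker lists. Of 16 hippocampal subfield markers 15 were higher in HC and 0 lower, and of 13 cortical layer markers 9 were lower in HC and 1 higher. Genes of other cells also differed between the dissections, with 13 of 13 choroid plexus genes, 14 of 14 myelin genes, 9 of 12 astrocyte genes and 5 of 8 genes of oligodendrocyte precursors higher in HC and 0 lower. Other lists moved less uniformly, with 2 of 10 microglial and 2 of 14 endothelial and mural genes higher and 0 lower, 0 of 11 interneuron genes higher and 2 lower, 5 of 9 thalamic genes higher and 1 lower, 1 of 11 striatal genes higher and 4 lower, and 1 of 11 pan-neuronal genes higher and 2 lower. Neither the 12 photoreceptor nor the 4 sex-linked genes held one that passed the test between the regions. These counts stand beside 9.71% of all genes higher and 8.74% lower in HC. The part of these cell types in the differences below was not tested.

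Promoter windows were available for 31 of the 40 genes, as 68 windows of 300 bases (250 before and 50 after the start) from RefSeq on GRCm38.p6. They are shown for the PKA subunits because the alpha and beta genes behaved differently between the regions, and for Pde8a because it differed widely. Where a gene has several windows, 1 with the most copies of the motif below was picked, so the windows printed are not a sample of the promoters. The motif was in 3 of 6 windows of Prkar1a, 1 of 5 of Prkar1b, 1 of 2 of Prkaca, 1 of 3 of Prkacb, 1 of 1 of Prkar2a and of Pde8a, and 0 of 2 of Prkar2b. For Prkar2b the rule thus did not choose. Its window not printed, chr12:32061228-32061527, lies upstream and has 4 copies of GGGCGG, against 0 in the one printed. Capitals mark TGACG on either strand, the core of the cAMP response element (CRE) to which CREB family factors are known to bind, and a stretch of 8 capitals marks the full palindrome TGACGTCA, in which the cores of both strands overlap.
Prkar1a chr11:109650699-109650998 (plus strand): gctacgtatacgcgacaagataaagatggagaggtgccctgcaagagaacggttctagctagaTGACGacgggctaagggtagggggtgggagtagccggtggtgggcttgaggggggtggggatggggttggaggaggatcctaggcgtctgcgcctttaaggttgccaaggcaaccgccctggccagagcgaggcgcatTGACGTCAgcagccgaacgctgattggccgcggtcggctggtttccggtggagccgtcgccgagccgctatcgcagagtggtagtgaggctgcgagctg
Prkar1b chr5:139149952-139150251 (minus strand): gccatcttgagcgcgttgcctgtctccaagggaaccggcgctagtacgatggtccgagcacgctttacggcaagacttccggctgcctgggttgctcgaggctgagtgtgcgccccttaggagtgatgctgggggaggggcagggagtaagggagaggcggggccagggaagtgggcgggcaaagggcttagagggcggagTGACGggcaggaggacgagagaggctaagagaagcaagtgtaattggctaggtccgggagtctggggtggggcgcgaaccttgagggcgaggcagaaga
Prkaca chr8:83972728-83973027 (plus strand): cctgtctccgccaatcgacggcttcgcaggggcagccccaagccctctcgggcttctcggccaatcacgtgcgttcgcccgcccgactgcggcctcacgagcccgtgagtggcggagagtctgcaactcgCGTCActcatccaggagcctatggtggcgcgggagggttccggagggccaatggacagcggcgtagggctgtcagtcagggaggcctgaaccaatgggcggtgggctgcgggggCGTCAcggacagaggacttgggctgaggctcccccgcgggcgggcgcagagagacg
Prkacb chr3:146812897-146813196 (minus strand): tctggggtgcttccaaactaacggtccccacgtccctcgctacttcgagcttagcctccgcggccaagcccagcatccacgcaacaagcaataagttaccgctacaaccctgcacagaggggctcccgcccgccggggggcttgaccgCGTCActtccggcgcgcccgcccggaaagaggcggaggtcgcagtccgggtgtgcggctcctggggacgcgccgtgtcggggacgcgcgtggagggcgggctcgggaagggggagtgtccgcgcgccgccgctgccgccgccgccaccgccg
Prkar2a chr9:108691893-108692192 (plus strand): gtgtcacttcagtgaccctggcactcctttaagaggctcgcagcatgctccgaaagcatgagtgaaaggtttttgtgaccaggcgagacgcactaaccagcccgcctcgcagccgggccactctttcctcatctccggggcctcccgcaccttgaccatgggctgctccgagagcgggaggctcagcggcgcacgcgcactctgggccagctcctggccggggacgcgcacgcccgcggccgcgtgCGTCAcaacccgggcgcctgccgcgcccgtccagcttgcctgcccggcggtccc
Prkar2b chr12:32060540-32060839 (minus strand): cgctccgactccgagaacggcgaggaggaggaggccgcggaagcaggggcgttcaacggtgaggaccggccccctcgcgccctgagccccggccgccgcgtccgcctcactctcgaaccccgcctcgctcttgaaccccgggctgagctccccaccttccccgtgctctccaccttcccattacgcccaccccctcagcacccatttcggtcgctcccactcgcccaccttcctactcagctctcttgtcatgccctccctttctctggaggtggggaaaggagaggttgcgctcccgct
Pde8a chr7:81213015-81213314 (plus strand): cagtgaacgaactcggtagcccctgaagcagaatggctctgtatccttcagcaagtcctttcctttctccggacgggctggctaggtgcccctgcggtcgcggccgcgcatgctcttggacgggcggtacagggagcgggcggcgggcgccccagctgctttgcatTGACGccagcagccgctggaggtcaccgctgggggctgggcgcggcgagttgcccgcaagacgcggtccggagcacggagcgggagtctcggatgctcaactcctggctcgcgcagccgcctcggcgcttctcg
The palindrome stood in 2 of the 68 windows (2.94%), both of them overlapping windows of Prkar1a, and in 1.79% of all 32851 RefSeq windows of that length. In the window printed it began 49 bases before the start. The core TGACG, searched on both strands, was found in 23.5% of the windows of these genes and in 20.8% of all windows. By gene, 7 of the 13 matched genes that differed between the regions had a window with the core, and so did 7 of the 18 that did not pass the test. The GC box GGGCGG was in 39.7% against 35.7% and TATAAA in 5.88% against 13.6%, both on either strand. These are matches of letters and not sites shown to be bound.

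The first comparison asked how the pathway differs between the hippocampus and the cingulate cortex, taken as HC minus ACC over control and trained pools. It found 15 of the 40 genes changed at an adjusted p under 0.05, with 5 higher and 10 lower in HC. Phosphodiesterases went both ways, led by Pde11a and Pde8a above and Pde4d and Pde7b below. Both PKA regulatory subunits of beta type, the catalytic subunit Prkacb and the cyclases Adcy2 and Adcy7 were lower in HC. Of all 27381 genes 18.5% passed (9.71% higher and 8.74% lower), so that 37.5% of these genes stood against 18.5% of all. The pathway genes are brighter than most, and among the 13691 genes at or above the median level, fitted alone, 36.7% passed (20.8% higher and 15.9% lower). In that fit 33 of the 40 genes were included, of which 6 were higher and 12 lower. Their median difference over all 40 was -0.07 on the log2 scale against -0.01 over all genes, and the median size of the difference was 0.14 against 0.10. The 6 HC pools and the 6 ACC pools did not overlap for 14 of the 40 genes (35%), as against 11.1% of all genes.

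**Figure D1:**
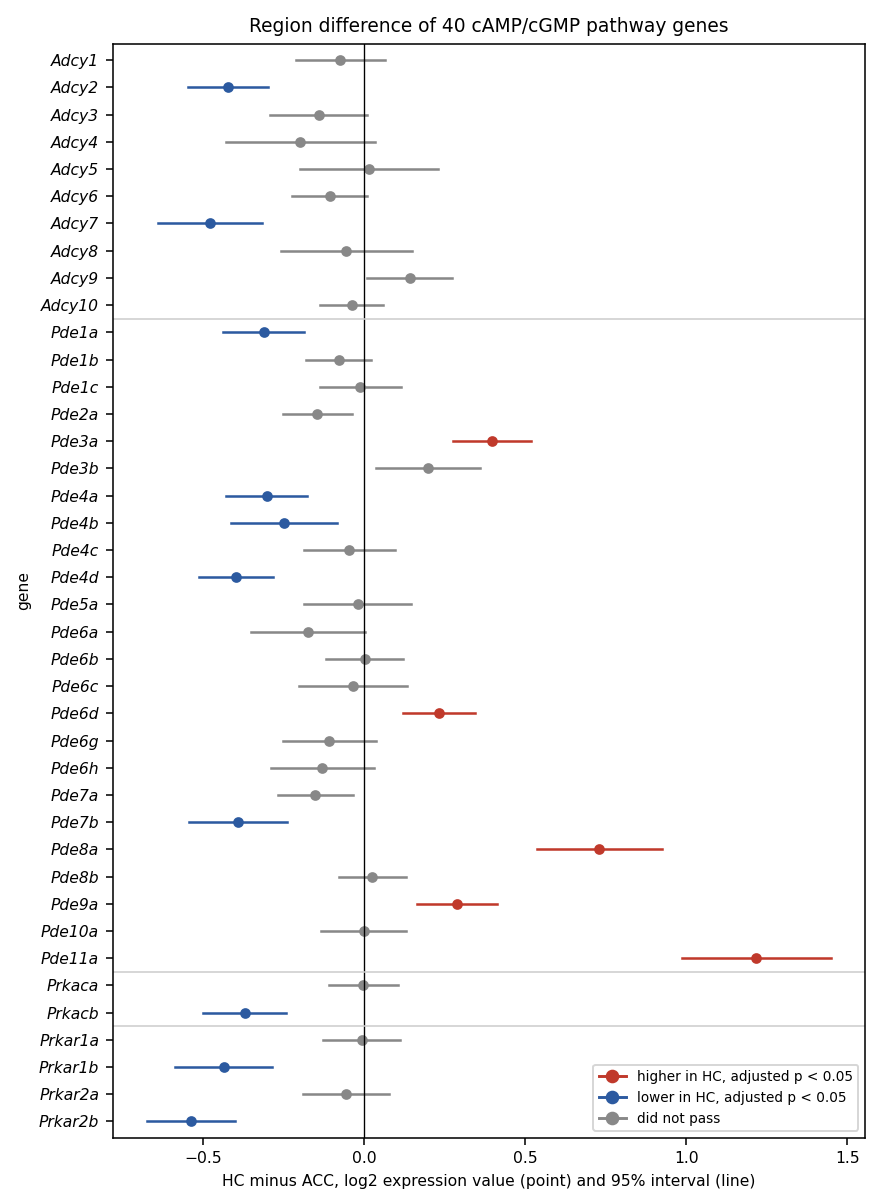
Difference between HC and ACC for each of the 40 genes (x axis, log2 expression value; points are limma estimates from 6 pools per region and lines their 95% intervals), grouped into cyclases, phosphodiesterases, PKA catalytic and PKA regulatory subunits. Red marks the 5 genes higher in HC and blue the 10 lower ones, all with an adjusted p under 0.05; Pde11a lies farthest out at 1.22.

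Among the cyclases, 2 of 10 were lower in HC and 0 higher. That is 20%, near the 18.5% of all genes. The 36.7% of genes at or above the median level came from a separate fit and is not a like comparison. The share was 41.7% of the phosphodiesterases and 50% of both the PKA catalytic and the PKA regulatory subunits. Adcy2, a cyclase that G protein beta-gamma subunits stimulate together with Gs, measured 8.31, 8.52 and 8.37 in ACC control, 8.37, 8.45 and 8.45 in ACC trained, 7.94, 7.95 and 8.09 in HC control, and 7.99, 8.04 and 7.91 in HC trained pools. Every HC pool was below every ACC pool, and the difference was -0.42 (SE 0.06, adjusted p = 0.000163), or 1.34-fold lower.

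Adcy7, of the same class, measured 3.82, 3.74 and 3.90 in ACC control, 3.62, 3.56 and 3.70 in ACC trained, 3.20, 3.07 and 3.17 in HC control, and 3.26, 3.60 and 3.17 in HC trained pools. The regions overlapped through 1 array, HC trained pool 2, which reached the level of the trained ACC pools. That array also held the lowest mean of the choroid plexus genes in HC, 4.20 against 4.66 to 4.86 in the other 5 HC pools, while the ACC pools lay at 3.01 to 3.12. The striatal genes had their lowest HC mean there too, 4.48 against 4.58 to 4.66, with the ACC pools at 4.70 to 4.87. Both lists were picked after the values were seen, and their part in Adcy7 was not tested. The difference was -0.48 (SE 0.07, adjusted p = 0.000527), and it was -0.54 without that pool. Within control pools it was -0.67 (adjusted p = 0.00108) and within trained pools -0.28 (adjusted p = 0.129). Adcy4, the last of the class, did not pass (-0.20, adjusted p = 0.234).

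The cyclases stimulated by calcium and calmodulin, which couple neuronal activity to cAMP, did not pass in any of 3 cases: Adcy1 was at -0.07 (95% interval -0.21 to 0.06), Adcy3 at -0.14 (-0.29 to 0.01) and Adcy8 at -0.06 (-0.26 to 0.15). The calcium-inhibited Adcy5, known from the striatum, differed by 0.02 (-0.20 to 0.23) and Adcy6 by -0.11 (-0.22 to 0.01). Adcy9, a widely expressed cyclase, was at 0.14 (adjusted p = 0.136), and Adcy10, under the receptor gene percentile, at -0.04 (adjusted p = 0.615).

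The phosphodiesterases that hydrolyse both nucleotides (families 1, 2, 3, 10 and 11) had 2 of 8 members higher and 1 lower. Pde11a, whose product is known in the brain mainly from hippocampal neurons, measured 4.40, 4.59 and 4.18 in ACC control, 4.25, 3.86 and 4.53 in ACC trained, 5.56, 5.61 and 5.41 in HC control, and 5.55, 5.39 and 5.61 in HC trained pools. Every HC pool was above every ACC pool, with the narrower spread in HC. The difference of 1.22 (SE 0.11, adjusted p = 4.23e-06), or 2.33-fold, was the largest of the 40 in size, and it was 1.25 within batch 1 and 1.15 within batch 2.

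Pde3a encodes a phosphodiesterase that cGMP inhibits. It measured 3.35, 3.37 and 3.33 in ACC control, 3.38, 3.31 and 3.54 in ACC trained, 3.79, 3.93 and 3.89 in HC control, and 3.61, 3.72 and 3.70 in HC trained pools. Every HC pool was above every ACC pool, with trained HC pools below control HC pools. The region difference was 0.40 (SE 0.06, adjusted p = 0.000236), being 0.52 within control pools and 0.27 within trained pools, where it no longer passed (adjusted p = 0.052). Its relative Pde3b, at 4.62 to 5.08 in ACC and 4.93 to 5.18 in HC, did not pass (0.20, adjusted p = 0.0868).

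In the calcium/calmodulin-dependent family 1, Pde1a ran from 8.70 through a median of 8.83 to 8.94 in ACC and from 8.35 through 8.50 to 8.69 in HC. The regions did not overlap, though only narrowly, and Pde1a was lower in HC by a log2 difference of -0.31 (SE 0.06, adjusted p = 0.00193). Its difference was larger within trained pools (-0.43, adjusted p = 0.00458) than within control pools (-0.20, adjusted p = 0.141), but the change between them was not past the threshold. Pde1b (-0.08, adjusted p = 0.278) and Pde1c (-0.01, adjusted p = 0.921) did not pass.

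Pde2a, which cGMP activates, ran from 9.50 to 9.63 in ACC and from 9.36 to 9.47 in HC. Its pools did not overlap, yet the difference of -0.15 (SE 0.05) narrowly missed the threshold with an adjusted p of 0.0581. Pde10a, known as the phosphodiesterase of striatal medium spiny neurons, differed by -0.00 (95% interval -0.13 to 0.13, adjusted p = 0.985).

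Of the 8 cAMP-specific phosphodiesterases (families 4, 7 and 8), 1 was higher and 4 were lower in HC. Pde8a, a high-affinity enzyme, measured 5.51, 5.01 and 4.98 in ACC control, 5.10, 4.93 and 5.22 in ACC trained, 5.89, 5.90 and 5.76 in HC control, and 5.82, 5.86 and 5.89 in HC trained pools. The regions did not overlap, and the highest ACC value was that of ACC control pool 1. The mean of the myelin genes was also highest in that ACC pool, 6.82 against 6.01 to 6.42 in the other ACC pools and 7.06 to 7.14 in HC, and the part of myelinating cells in Pde8a was not tested.

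The region difference of Pde8a was 0.73 (SE 0.09, adjusted p = 7.67e-05), or 1.66-fold, and 0.82 without that pool. It was 0.73 in each batch. Pde8b, its relative, differed by 0.03 (95% interval -0.08 to 0.13).

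Family 4 encodes the enzymes that rolipram inhibits. Pde4d measured 5.87, 5.98 and 6.10 in ACC control, 5.88, 5.81 and 5.89 in ACC trained, 5.50, 5.51 and 5.40 in HC control, and 5.60, 5.56 and 5.56 in HC trained pools. Every HC pool was below every ACC pool, and the difference was -0.40 (SE 0.05, adjusted p = 0.000159), or 1.32-fold lower. It was -0.51 within control pools and -0.29 within trained pools, and passed in both.

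Pde4a ran from 6.89 to 7.13 in ACC and from 6.61 to 6.80 in HC without overlap, and was lower in HC (-0.30, SE 0.06, adjusted p = 0.00246). Pde4b ran from 6.04 to 6.32 in ACC and from 5.71 to 6.11 in HC, so that the regions overlapped. Its difference of -0.25 (SE 0.08, adjusted p = 0.0371) was the smallest of the genes lower in HC and lost the call in 12 of 22 alternatives (adjusted p = 0.0139 to 0.341 over all). Among these was leaving out ACC control pool 1 (-0.21), ACC trained pool 1 (-0.25) or 3 (-0.23), HC control pool 2 (-0.25) or 3 (-0.22), or HC trained pool 1 (-0.25) or 2 (-0.20). Pde4c was at -0.05 (adjusted p = 0.692).

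Pde7b, whose enzyme has a high affinity for cAMP, ran from 7.35 through 7.52 to 7.71 in ACC and from 6.97 through 7.11 to 7.24 in HC. The regions did not overlap, and the difference of -0.39 (SE 0.07, adjusted p = 0.00145) was 1.31-fold lower in HC. The first batch gave -0.46 and the second -0.26. Pde7a did not pass (-0.15, adjusted p = 0.0694).

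Among the enzymes that act on cGMP alone, Pde9a, known for its high affinity for cGMP, ran from 5.18 through 5.33 to 5.40 in ACC and from 5.50 through 5.59 to 5.66 in HC. The pools did not overlap, and Pde9a was higher in HC by 0.29 (SE 0.06, adjusted p = 0.00331), though within trained pools alone the adjusted p was 0.0537. Pde5a, the target of sildenafil, differed by -0.02 (95% interval -0.19 to 0.14).

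In the Pde6 family, 1 of 6 genes passed (16.7%, beside 18.5% of all genes). Pde6d encodes a delta subunit that also carries prenylated proteins between membranes outside the eye, and it was the one member of the family above the receptor gene percentile. It ran from 6.27 to 6.42 in ACC and from 6.46 to 6.66 in HC without overlap, and was higher in HC by 0.23 (SE 0.05, adjusted p = 0.00626). The photoreceptor genes Pde6a, Pde6b, Pde6c, Pde6g and Pde6h had region differences between -0.17 and 0.00, with 0 past the threshold in the limma fit over control and trained pools and 0 at an unadjusted p under 0.05. Within control pools alone Pde6g was lower in HC (-0.31, adjusted p = 0.0481) and Pde6a was at -0.35 (adjusted p = 0.064), and within trained pools they were at 0.09 and 0.00. The other 12 photoreceptor genes measured held 3 above the receptor gene percentile.

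**Figure D2:**
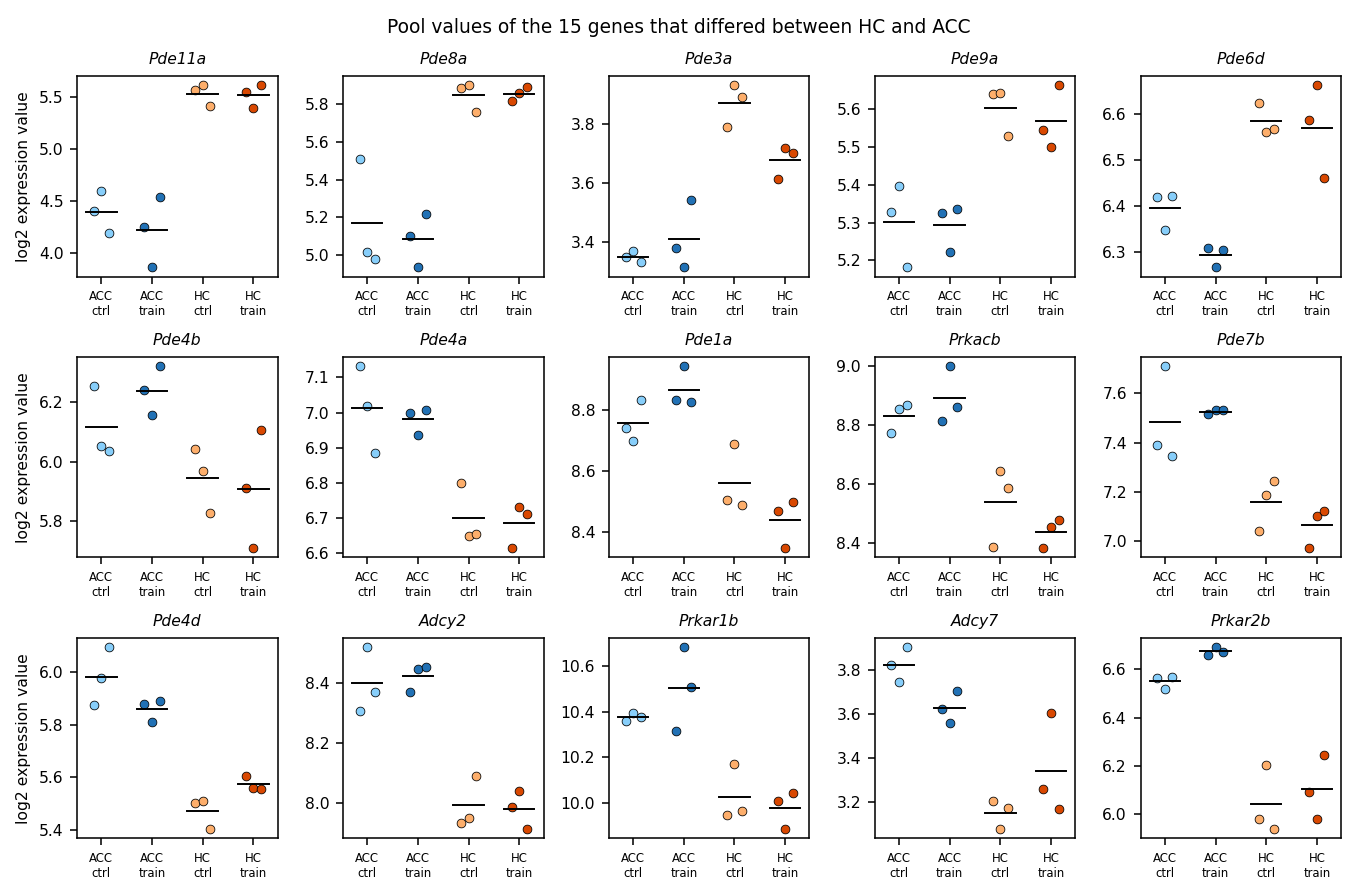
Expression (y axis, log2 expression value) in each of the 12 pools for the 15 genes that differed between the regions; each point is 1 pool of control or trained mice from ACC or HC and each bar the mean of 3 pools. The regions overlap for Adcy7, through 1 HC trained pool at 3.60, and for Pde4b, and are separate for the other genes.

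PKA showed lower values in HC for 3 of its 6 subunits. Prkar2b, the type II regulatory subunit that is the main one of neurons, measured 6.56, 6.52 and 6.57 in ACC control, 6.66, 6.69 and 6.67 in ACC trained, 5.98, 6.20 and 5.94 in HC control, and 6.09, 5.98 and 6.25 in HC trained pools. Every HC pool was below every ACC pool. The difference of -0.54 (SE 0.06, adjusted p = 5.06e-05), or 1.45-fold lower, was the largest decrease of the 40, and it was -0.54 and -0.53 in the 2 batches.

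Prkar1b, the type I regulatory subunit expressed mainly in the nervous system, measured 10.36, 10.39 and 10.38 in ACC control, 10.32, 10.68 and 10.51 in ACC trained, 9.95, 10.17 and 9.96 in HC control, and 10.01, 9.88 and 10.04 in HC trained pools. The regions did not overlap, and the trained ACC pools spread more widely than the control ACC pools. The difference was -0.44 (SE 0.07, adjusted p = 0.000652), or 1.35-fold lower.

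Prkacb, the catalytic beta subunit, measured 8.77, 8.86 and 8.87 in ACC control, 8.81, 9.00 and 8.86 in ACC trained, 8.39, 8.64 and 8.59 in HC control, and 8.38, 8.45 and 8.48 in HC trained pools. Every HC pool was below every ACC pool, with a difference of -0.37 (SE 0.06, adjusted p = 0.00069), or 1.29-fold lower. The widely expressed alpha subunits did not pass. Prkaca differed by -0.00 (95% interval -0.11 to 0.11), Prkar1a by -0.01 (-0.13 to 0.11) and Prkar2a by -0.06 (-0.19 to 0.08).

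Whether 2 members of a family differed between the regions by unequal amounts was tested directly for 6 pairs. The log2 difference of both genes was taken within each array and compared between the 6 HC and 6 ACC pools by a two-sided exact permutation test, adjusted over the 6 pairs. The regional values were known when the pairs were set, and because probes differ in brightness the sign of a within-array difference gives no order of abundance. Prkacb minus Prkaca ran from 0.30 to 0.47 in ACC and from -0.10 to 0.13 in HC. The regions were separate, and the shift was -0.37 (exact p = 0.00216, the smallest that 6 against 6 allow, adjusted p = 0.00324). Prkar1b minus Prkar1a shifted by -0.43 and Prkar2b minus Prkar2a by -0.48, both with the same p and adjusted p. All 3 PKA pairs shifted against the beta gene in HC.

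In the phosphodiesterase pairs, Pde8a minus Pde8b shifted by 0.70 (exact p = 0.00216, adjusted p = 0.00324). Pde7a minus Pde7b shifted by 0.24 (exact p = 0.00649, adjusted p = 0.00779), with overlapping pools. Pde3a minus Pde3b shifted by 0.20, which did not pass (exact p = 0.0736, adjusted p = 0.0736), so the region differences of these 2 genes were not shown to be unequal.

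**Figure D3:**
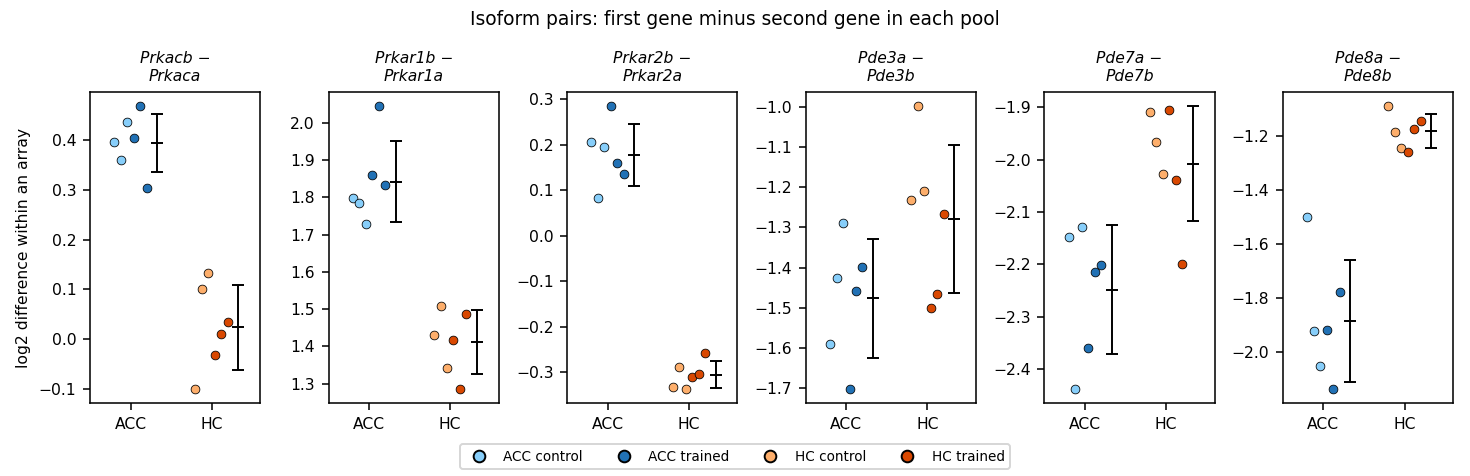
Within-array log2 difference between 2 genes of a family (y axis) in the 6 ACC and 6 HC pools, for 6 pairs; points are pools, bars are the mean and SD of 6 pools, and each panel has its own scale. The 3 PKA pairs and the Pde8 pair are separate between the regions, whereas the Pde3 and Pde7 pairs overlap.

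Around these enzymes, other genes of the pathway were counted from 8 lists, whose members were chosen with earlier results of these data known. Beside them stand 18.5% of all genes in the same fit, and 36.7% of those at or above the median level in the separate fit. The shares called were 46.2% of the guanylyl cyclases and cGMP kinases, 47.1% of the G protein and RGS genes and 46.7% of the receptors. They were 40.9% of the anchoring proteins, 40% of the substrates, 23.1% of the other effectors, 9.09% of the CREB family and 0% of the PKA inhibitors. Only 8 of 13 guanylyl cyclases and cGMP kinases and 7 of 13 other effectors lay above the receptor gene percentile. So did 19 of 22 anchoring proteins, 13 of 15 receptors and all genes of the remaining pathway lists. Of 13 guanylyl cyclases and cGMP kinases, 1 was higher and 5 were lower in HC. Gucy1a1 and Gucy1b1, the subunits of the nitric oxide-sensitive guanylyl cyclase, were lower by log2 differences of -1.12 (SE 0.07, adjusted p = 3.77e-07) and -0.39 (SE 0.05, adjusted p = 0.000128), whereas the kinase gene Prkg1 was higher by 0.42 (SE 0.06, adjusted p = 0.000361).

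Upstream, 1 of 17 genes of G protein alpha subunits and RGS proteins was higher and 7 were lower in HC. The G protein regulator genes Rgs4 and Rgs7 were lower (-1.10 and -0.29, adjusted p = 2.37e-06 and 0.00422) and Rgs14, a marker of hippocampal area CA2 and also in the hippocampal list, was higher (0.85, adjusted p = 1.75e-06). Of 15 Gs-coupled receptors, 4 were higher and 3 lower. They were led by the serotonin receptor gene Htr4 (1.42, adjusted p = 7.72e-08) and the dopamine receptor gene Drd5 (0.92, adjusted p = 1.51e-06), both higher, and the corticotropin-releasing hormone receptor gene Crhr1 (-0.72, adjusted p = 1.84e-05), lower.

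Downstream of cAMP, 0 of 3 PKA inhibitor genes passed the limma test in either direction, and 0 did so at an unadjusted p under 0.05. Of 22 anchoring proteins, which hold PKA at its sites in the cell, 4 were higher and 5 lower in HC, and the largest were the increases of Akap13 (0.48), Wasf1 (0.36) and Sphkap (0.34). Of 13 other effectors, 2 were higher and 1 lower. The Popeye genes Popdc3 and Bves, whose products bind cAMP, were higher by 1.53 and 0.89 (adjusted p = 3.45e-07 and 1.42e-05), and the channel gene Hcn3 was lower (-0.36, adjusted p = 0.00377).

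In the CREB family, 1 of 11 genes was higher and 0 were lower, the coactivator gene Crtc3 at 0.35 (adjusted p = 0.00572). Of 10 PKA substrates of neurons, 0 were higher and 4 lower, among them Arpp19 (-1.10, adjusted p = 1.75e-07), Arpp21 (-0.74, adjusted p = 2.18e-06) and Syn1 (-0.29, adjusted p = 0.00214). Arpp19 and Arpp21 encode phosphoproteins first known as PKA targets, and Syn1 encodes synapsin I of synaptic vesicles.

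The second comparison asked whether training changed the pathway, and none of the 40 genes passed in limma in either region. In ACC 0 of 40 passed the adjusted threshold, as did 0% of all 27381 genes, and the smallest adjusted p among the 40 was 0.758. Of the 40, 0 reached an unadjusted p under 0.05, beside 6.95% of all genes. In HC 0 of 40 and 0% of all genes passed as well (smallest adjusted p 0.662), with 5 of the 40 at an unadjusted p under 0.05 (3 higher and 2 lower) beside 6.82% of all genes. The 3 trained and 3 control pools did not overlap for 5 of the 40 genes in ACC (12.5%, beside 11.6% of all genes) and for 7 in HC (17.5%, beside 12.3%). The region x training difference passed for 0 of the 40 and 0% of all genes (smallest adjusted p 0.394), with 4 of the 40 at an unadjusted p under 0.05 beside 8.86% of all genes. Among the genes of the 22 lists no gene passed for training either.

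**Figure D4:**
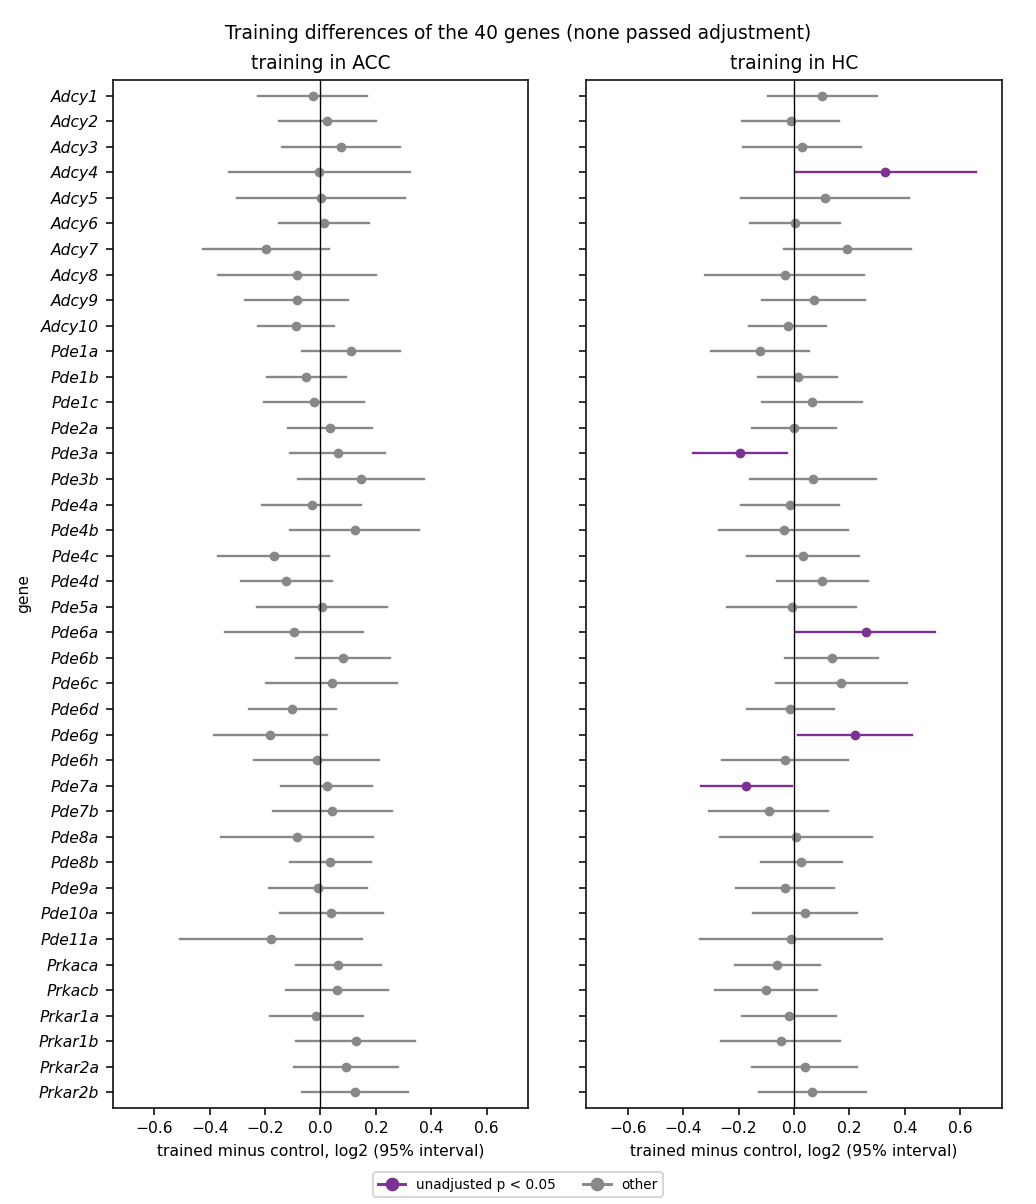
Trained minus control difference of the 40 genes (x axis, log2 expression value, with the same scale in both panels) in ACC (left) and HC (right); points are limma estimates from 3 pools per group and lines their 95% intervals. The 5 genes in purple, all in HC, had an unadjusted p under 0.05, and 0 passed after adjustment over all genes.

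The values behind the smallest p are given as measurements that did not pass. Within the regions Pde3a in HC had the smallest, with the control pools at 3.79 to 3.93 and the trained pools at 3.61 to 3.72. The trained pools were lower without overlap, and the difference was -0.19 (SE 0.08, adjusted p = 0.662), at -0.20 in batch 1 and -0.19 in batch 2. In ACC the same gene differed by 0.06, and the region x training difference was -0.26 (adjusted p = 0.532).

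Pde7a in HC measured 5.13, 5.22 and 5.22 in control and 5.07, 5.06 and 4.92 in trained pools. The groups did not overlap, and the difference was -0.17 (adjusted p = 0.699), being -0.11 in batch 1 and -0.29 in batch 2. In ACC it was 0.02.

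The photoreceptor genes Pde6g and Pde6a, an inhibitory and a catalytic subunit of the rod enzyme, lay under the receptor gene percentile in these tissues. Pde6g in HC differed by 0.22 (adjusted p = 0.695), with 0.36 in batch 1 and -0.05 in batch 2, so that its direction turned between the batches, and 0.14 without HC trained pool 2. In ACC it differed by -0.18, and its region x training difference of 0.40 (adjusted p = 0.394) had the smallest adjusted p of the 40. Pde6a in HC differed by 0.26 (adjusted p = 0.708), and its region x training difference was 0.35 (adjusted p = 0.564).

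Among the cyclases, Adcy7 differed by -0.20 in ACC (adjusted p = 0.759) without overlap, and the batches gave -0.19 and -0.20. The HC difference was 0.19, with 0.29 from the first batch and -0.00 from the second. The region x training difference of 0.39 (adjusted p = 0.471) was 0.26 without HC trained pool 2. Adcy4 in HC, chosen after its values were seen as the last of the 5 genes at an unadjusted p under 0.05, measured 3.59, 3.33 and 3.34 in control and 3.76, 3.77 and 3.71 in trained pools, a difference of 0.33 (adjusted p = 0.729).

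Of the phosphodiesterases named for ACC, Pde4c differed by -0.17 (adjusted p = 0.763), with -0.09 in batch 1 and -0.33 in batch 2. Pde4d differed by -0.12 (adjusted p = 0.8), with -0.08 and -0.21 in these batches and -0.07 without ACC control pool 3. Pde4d in HC stood at 0.10, and its region x training difference of 0.23 had an adjusted p of 0.57. The 6 PKA subunits had 0 at an unadjusted p under 0.05 in either region. The sex-linked genes also differed in level between pools, with means of 4.61 to 4.81 in ACC control and 4.96 to 5.50 in ACC trained. The list was drawn up from Xist and genes of the Y chromosome, which move in opposite ways with the sex of the mice. Their mean therefore does not measure the sex balance. Singly they ran from -0.78 to 1.06 with training in ACC, with 3 positive and 1 negative. In ACC 3 of 4 were higher at an unadjusted p under 0.05 in limma (smallest adjusted p 0.574). In HC they ran from -0.18 to 0.27, with 0 at that level. The part of the sex balance of the pools in the training differences was not tested.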

How the data were processed

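The authors extracted RNA, pooled it and hybridised 12 arrays, and the deposited log2 values were background-corrected, normalized and summarised per Entrez gene by Robust Multiarray Average (RMA, affy 1.62.0 under R 3.6.0, as named in the processing notes). Which arrays were normalized together is not given in the sources used here. Columns were matched to groups by their labels. Arrays have no sequencing depth, so the 3 pools per group limit the precision. Each limma p-value sets a difference against the spread between pools, moderated over all genes. In the paper both regions were taken from each mouse, and trained and control mice were paired by litter and sex. Which mice entered which pool was not known here. The fit and the permutation test therefore treated the 12 pools as independent, which may not hold.

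From these values, 4 group means were fitted to the 27381 genes in limma 3.58.1 under R 4.3.3, using lmFit and eBayes with no covariate and no filter, and a gene was called at a Benjamini-Hochberg adjusted p under 0.05 over the whole table. Of the genes, 26794 have 1 symbol and 587 none in the platform table. Folds are 2 to the power of the log2 difference. The procedure was tested on simulated data. Transcript isoforms of a gene share its 1 value and were not separated.

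Members and lists were chosen with earlier results of these data known. Named were the members past the threshold between regions (up to 12 each way), the 4 smallest p of each training contrast, the largest region difference of each family and the 3 smallest p of each pathway list. For the 14 marker lists the counts are given. Pool means are added for the choroid plexus, striatal, myelin and sex-linked lists, and training ranges for the last, all picked after the values were seen. Other settings tried were a block for batch or for replicate number, batch 1 alone, control or trained pools alone, 1 region alone, quantile normalization, median centring, trend and robust, array weights, brighter genes alone and each array left out.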

Additional observations from a re-analysis of the deposited data

How the results depend on the processing

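Over the alternatives run, 3 to 6 of the 40 genes were higher in HC and 8 to 12 lower, and training called 0 of them in every one. Leaving out each array in turn gave 5 to 6 higher and 9 to 11 lower. The widest departure came from trained pools alone, with 3 higher and 8 lower. There Pde3a, Pde9a and Adcy7 lost their call (adjusted p = 0.052, 0.0537 and 0.129, where the ranges over all alternatives were 7.02e-05 to 0.052, 0.00112 to 0.0537 and 5.77e-05 to 0.129). Pde4b lost its call there too (-0.33, adjusted p = 0.0804 in limma). With control pools alone Pde6d (0.19) and Pde1a (-0.20) lost theirs, as did Pde4b, and Pde6g gained one (-0.31, adjusted p = 0.0481). Pde4b passed in 10 of 22 alternatives (adjusted p = 0.0139 to 0.341), and Pde2a, which missed the threshold, passed in 3. The small differences of Pde5a and Pde10a turned sign. Median centring gave 0.0017 and 0.0204, batch 1 alone gave 0.0258 for Pde10a, and leaving out 1 array gave -0.0721 to 0.0190 for Pde5a and -0.0287 to 0.0253 for Pde10a. The cause was not tested. Both scalings kept the direction of the 15 genes, and median centring moved the counts over all genes from 2660 higher and 2394 lower to 3016 and 2018.

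Replicate numbers are shared between the groups, but the deviations of same-numbered pools correlated at -0.27 to 0.04 over 18 comparisons. Of these, 0 were above 0.1 and 0 highest with their own number, so the numbers were not taken as pairs. Pool 3 was the only pool of batch 2 in each group, and its correlations were all negative (-0.266 to -0.183). Those of pools 1 and 2 ran from -0.123 to 0.0431. For pool 3 the number and the batch cannot be told apart, so a pairing is not excluded. The fit with the replicate block gave 5 higher and 10 lower, and 0 for region x training and for training in either region. A batch block gave 5 and 9. Every group had the same pool numbers and the same split over the batches, so neither block could change a difference, only its error. Whether the deposited values had already been adjusted for batch was not tested, so these fits are no check on batch.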
